A study of Mus musculus with 105 samples.

Results

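The numbered Zfp genes are mouse genes named Zfp with a number alone, and most encode proteins with zinc fingers of the C2H2 kind. A gene was taken as a member if its symbol had that form, with Zfp36 left out, and if its mean exon count over all libraries was 10 or more. The members were thus chosen by name and by measured level, and the levels given below are a description. The rule gave 230 members of 363 numbered Zfp genes among the 22322 genes of the table, and 133 numbered Zfp genes fell below the limit. Zfp873, Zfp937, Zfp358 and Zfp11 lay just inside it, with mean exon counts of 10.5, 10.5, 11.1 and 11.1. Zfp964, Zfp61, Zfp41 and Zfp772 lay just outside, with 9.74, 9.75, 9.95 and 9.96.

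All libraries were made from total RNA of CD4+ T cells of 6 week old female C57BL/6J mice with no altered gene, taken from spleen and lymph nodes and purified by negative selection. Activated cells had been stimulated with magnetic beads carrying CD3 and CD28 antibodies, and resting cells had not. Transcription was blocked with triptolide at 25 µM, or with DRB (5,6-dichloro-1-β-D-ribofuranosylbenzimidazole) at 65 µM in activated cells alone. Translation was blocked with cycloheximide at 100 µg per ml or harringtonine at 2 µg per ml, each given by itself or together with a transcription blocker. Untreated cells, triptolide and DRB were sampled at 0, 1 and 3 h, and the groups with a translation blocker at 1 and 3 h. This made 35 groups of 3 libraries, 21 of activated and 14 of resting cells, with replicates numbered 2, 3 and 4. The labels call the replicates biological, and none says that the numbers stand for separate mice, so the p-values measure the spread between these samples.

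Zinc finger proteins of the C2H2 kind bind DNA, and some bind RNA, through strings of small folds that each hold a zinc ion. The largest subgroup carries a KRAB box, a short stretch that recruits the corepressor TRIM28 and through it the histone methyltransferase SETDB1. These KRAB proteins are known for silencing retroelements, and their genes lie in clusters of near-identical neighbours. Messages of transcription factors, zinc finger genes among them, are known as short-lived in many cells. Triptolide and DRB stop the making of new messages, so the level that remains after some hours reflects how fast a message was lost. Cycloheximide holds ribosomes on the message, and harringtonine stops them at the start of the reading frame.

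Each library held 6300 to 6479221 exon counts, with a median of 2135827. The shallowest were resting triptolide 1 h replicate 3 (6300 exon counts) and activated untreated 0 h replicate 3 (141028), and the next had 551975. Counts left unassigned to a gene took 75.8 to 97.3% of a library. The CD4+ T cell markers Cd3d and Cd4 had 118 to 538 and 119 to 476 CPM over all libraries, Cd3g and Trbc2 54.8 to 339 and 99 to 635 CPM, and Cd3e, at 0 in 1 library, up to 332 CPM. Of the CD8 T cell markers Cd8a reached 3.64 and Cd8b1 16.9 CPM in the highest library. The B cell markers Cd79a, Cd79b and Ms4a1 reached 10.3, 7.81 and 2.85 CPM, and the NK cell markers Ncr1 and Klrb1c 0.794 and 7.09 CPM. The myeloid markers Lyz2, Csf1r, Itgam and Adgre1 reached 2.97, 2.76, 14.8 and 14.9 CPM, and the red cell markers Hbb-bs and Hba-a1 17.5 and 2.43 CPM. CPM here means exon counts per 1000000 counts of a library, with library sizes scaled by TMM factors (trimmed mean of M values). Members took 0.481 to 1.71% of the exon counts of a library, with a median of 0.845%.

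Members were clustered in the genome and mostly weakly expressed. Of the 230, 53 were on chromosome 7, 30 on chromosome 17, 19 on chromosome 13 and 18 on chromosome 8, and 127 had another numbered Zfp gene within 100 kb. Translated GENCODE M21 transcripts held a median of 11 C2H2 fingers and at most 37, and 4 members had none by the pattern searched. A KRAB box, counted as at least 9 of 13 conserved letters of its A part, was found in 125 members. Of the members with a box 96 had a numbered Zfp neighbour, against 31 of those without. A divergent KRAB domain can be missed by this pattern.

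The median level was 21.2 CPM over members and 41.4 CPM over the 9236 genes of the table that passed the same limit of mean count. It was 16 CPM in members with a KRAB box and 34.7 CPM in those without. On the scale of CPM the 6 highest members were Zfp292 (296), Zfp106 (278), Zfp407 (215), Zfp592 (207), Zfp148 (204) and Zfp644 (202), means over all libraries. Per kb of exon the order changed, with Zfp869 (37.8 CPM per kb), Zfp281 (37.6), Zfp740 (30.3), Zfp110 (30.3), Zfp292 (29.6) and Zfp598 (29.6) highest. Exons of 63 members overlapped an antisense gene and those of 23 a gene on the same strand, and nothing in the sources used here says whether strand was used in counting. Reads from near-identical family members can also be split between them or left out, so members of clusters carry that uncertainty.

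The heptamer TATTTAT, the core of an AU-rich element, was searched in the 3′ untranslated region on the message strand, since such elements are known to mark unstable messages. It was present in 76 members (33.0%), against 28.3% of the other genes tested with a transcript, and their untranslated regions were longer, with medians of 1313 and 1011 bases. The sites below are from messages described in the results, with the heptamer in capitals and GRCm38 coordinates. Zfp217 and Zfp157 fell under both transcription blockers, and Zfp91, Zfp597, Zfp169 and Zfp831 changed differently in activated and resting cells. The heptamer also lies in Zfp827, which rose relative to the typical message under both blockers. It lies as well in Zfp609 and Zfp9, which were called higher under triptolide in resting cells, and these sites are not printed.
Zfp217, chr2:170108766-170108790, minus strand: ttgttaatgTATTTATttcattcca
Zfp217, chr2:170108701-170108725, minus strand: gacatgcttTATTTATgatatattt
Zfp157, chr5:138458645-138458669, plus strand: tcattgataTATTTATgaactttgg
Zfp157, chr5:138459834-138459858, plus strand: aaatagagaTATTTATatcatgatt
Zfp91, chr19:12769225-12769249, minus strand: gagattcctTATTTATtaatggaaa
Zfp597, chr16:3863943-3863967, minus strand: aagcaacagTATTTATtaaaataga
Zfp169, chr13:48488722-48488746, minus strand: aggtatcggTATTTATgttgtgggg
Zfp169, chr13:48487683-48487707, minus strand: gtgtatataTATTTATtttacagta
Zfp831, chr2:174705991-174706015, plus strand: actgaacttTATTTATgaaacatct

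The first comparison asked how the messages differed between activated and resting cells before any inhibitor. Relative to the typical message, 45 members were lower and 15 higher in activated cells at 0 h, where 13.4% of all genes tested were lower and 16.8% higher. A gene was called at an adjusted p under 0.05 over all 9236 genes. Most of the lower calls were in the KRAB-box members, with 37 lower and 1 higher of 125 and a median log2 difference of -0.53. Members without the box had 8 lower and 14 higher and a median of 0.12. The 34 KRAB-box genes that carry other names had 12 lower and 1 higher, with a median of -0.64.

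Summed over the 125 KRAB-box members, the level was 4476, 4154 and 3791 CPM in resting untreated cells at 0 h (replicates 2, 3 and 4, the order used throughout) and 2957, 2703 and 2815 CPM in activated cells. The groups did not overlap. Summed over the members without a box it was 6650, 6561 and 6400 CPM in resting cells and 6889, 5748 and 6843 CPM in activated cells, which overlapped. Set against the ERCC spike-ins (RNAs of known amount added to each sample), the KRAB-box sum was 83.4 ± 12 counts per 1000 ERCC counts in resting and 63.9 ± 7.73 in activated cells (SD, n = 3). By this scale the groups overlapped, with 85.8, 70.4 and 94 in resting and 61.7, 57.4 and 72.4 in activated cells. In bulk samples fewer cells of a type and less RNA per cell cannot be told apart.

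**Figure D1:**
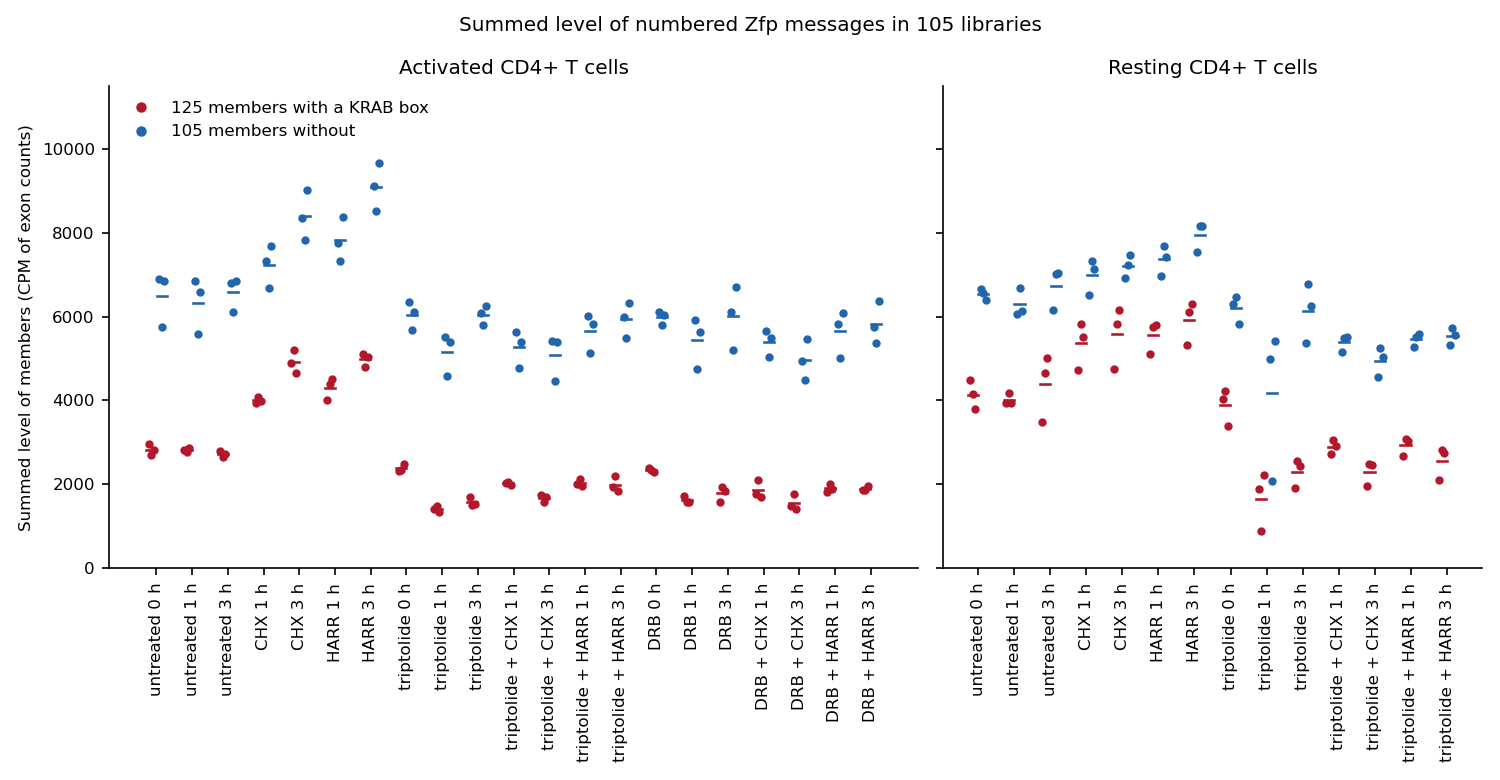
Summed level of the members in each library (y axis, CPM of exon counts, linear from 0) by group (x axis), for the 125 members with a KRAB box (red) and those without (blue). Each point is a library and each short line the mean of 3. CHX is cycloheximide and HARR harringtonine. The red points of untreated activated cells lie between 2640 and 2957 CPM and those of activated cells under cycloheximide for 3 h between 4647 and 5200 CPM. The low red and blue points at resting triptolide 1 h are the library of 6300 exon counts.

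Among KRAB-box members, Zfp85 had 14.4, 12.8 and 12.9 CPM in resting and 2.53, 6.47 and 1.75 CPM in activated cells (log2 -2.44, SE 0.48, adjusted p = 4.12e-05). Zfp101 had 22.9, 19.7 and 18.5 CPM in resting and 6.06, 6.47 and 6.41 CPM in activated cells (log2 -1.70, SE 0.38, adjusted p = 0.000279). In both genes the resting libraries were all above the activated ones. Zfp202, the KRAB-box member called higher, had 2.66, 3.67 and 4.53 CPM in resting and 19.7, 12.9 and 16.3 CPM in activated cells (log2 2.24, SE 0.43, adjusted p = 2.05e-05).

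Zfp593, whose protein takes part in the assembly of the large ribosomal subunit, was the highest riser among RNA and ribosome factors. It had 31.4, 18.3 and 24.4 CPM in resting and 84.4, 58.2 and 83.3 CPM in activated cells, with no overlap (log2 1.70, SE 0.27, adjusted p = 6.97e-07). Of the 9 RNA and ribosome factors measured, 4 were higher in activated cells (16.8% of all genes). None was called lower by edgeR (13.4% of all genes). The other factors called higher were the RNA-binding Zfp106 (log2 0.92, SE 0.23), the ribosome collision ligase Zfp598 (0.94, SE 0.32) and the double-stranded RNA binder Zfp346 (0.98, SE 0.24). In both Zfp598 and Zfp346 the activated replicate 3, the library of 141028 counts, lay within the resting range, and neither passed without the replicate 2 libraries (adjusted p = 0.25 and 0.24).

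Of the 16 transcription and chromatin regulators measured, Zfp384, Zfp609 and Zfp827 were higher (16.8% of all genes) and Zfp292 and Zfp644 lower (13.4%). Outside that list Zfp516, a regulator of brown fat genes, had 10.1, 13.8 and 16.4 CPM in resting and 51.8, 58.2 and 47.8 CPM in activated cells (log2 1.90, SE 0.36, adjusted p = 2.4e-05). Zfp292, the most abundant member, had 489, 348 and 406 CPM in resting and 235, 188 and 269 CPM in activated cells (log2 -0.81, SE 0.21, adjusted p = 0.00144). Without the replicate 2 libraries Zfp292, Zfp384, Zfp609, Zfp644 and Zfp827 did not pass (adjusted p = 0.12, 0.16, 0.28, 0.15 and 0.13), nor did Zfp384, Zfp609 and Zfp827 without replicate 4 (0.38, 0.15 and 0.054) and Zfp644 without replicate 3 (0.077). With spike-in scaling the calls of Zfp292, Zfp384, Zfp609 and Zfp644 were lost, at adjusted p = 0.096, 0.098, 0.097 and 0.21.

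Intron counts, which read unspliced RNA and were not used to choose members, could be tested for 137 members. They were lower in activated cells for 19 and higher for 4, where 12% of the 7389 genes tested on introns were lower and 13.4% higher. Introns of Zfp101 differed by -2.14 and those of Zfp202 by 1.74 on the log2 scale, as in the exons. At 3 h without inhibitor, 97 members were lower and 22 higher in activated cells by exons, against 29.5% and 28.6% of all genes. Of the 97, 73 had a KRAB box and 24 did not. With spike-in scaling 33 members were lower and 64 higher at 3 h, against 10.9% and 44.5% of all genes, and 20 lower and 9 higher at 0 h, against 4.35% and 12.2%. Without the 2 shallowest libraries 46 were lower and 16 higher at 0 h (14.6% and 16.3% of all genes). Without the replicate 2 libraries 18 were lower and 5 higher, where the shares of all genes were not counted.

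The next comparisons asked which messages were lost when transcription was blocked. Members fell more often than they rose in all 3 arms, which share no library. In activated cells from 0 to 3 h of triptolide 99 fell and 12 rose relative to the typical message, where 28.9% of all genes fell and 23.3% rose. Under DRB 86 fell and 13 rose (23.6% and 20.4% of all genes). In resting cells under triptolide 115 fell and 32 rose (32.9% and 29% of all genes). The median log2 change over members was -0.59, -0.61 and -0.76, against -0.06, -0.01 and -0.07 over all genes.

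These changes are relative, because TMM scaling sets the typical message to no change. Set against spike-ins the median of all genes fell by 1.75, 1.59 and 1.84 on the log2 scale and that of members by 2.35, 2.17 and 2.54. By that scale 209, 215 and 207 members fell and 0 rose by edgeR, also with 0 risers at an unadjusted p under 0.05, while DESeq2 with its own size factors called 6 risers in the activated triptolide arm. Of all genes 84.9%, 85.4% and 81.3% fell and 0.704%, 0.617% and 1.09% rose by that scale. The KRAB-box sum went from 57.8 ± 10.1 to 12.8 ± 5.04 counts per 1000 ERCC counts in activated cells under triptolide (SD, n = 3), and from 75.7 ± 12 to 13.1 ± 0.60 in resting cells. Without the replicate 4 libraries 70, 55 and 91 members fell and 7, 6 and 24 rose, where the shares of all genes were not counted.

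Both subgroups fell. Of the 125 KRAB-box members 51, 48 and 71 fell in the 3 arms and 3, 7 and 11 rose, with medians of -0.72, -0.77 and -0.83. Of the members without the box 48, 38 and 44 fell and 9, 6 and 21 rose, with medians of -0.50, -0.44 and -0.48. Falls were called in 33 of the 76 members with the heptamer TATTTAT and in 66 of the 154 without it under triptolide in activated cells, in 27 and 59 under DRB, and in 40 and 75 in resting cells.

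Members were also grouped by the box and by another numbered Zfp gene within 100 kb. Among the 31 without a box but with such a neighbour, 18, 19 and 17 fell in the 3 arms, with medians of -1.03, -0.90 and -1.10. Among the 74 with neither, 30, 19 and 27 fell, with medians of -0.22, -0.12 and -0.21. The 96 with both had 41, 36 and 57 falls, with medians of -0.78, -0.78 and -0.96, and the 29 with a box and no such neighbour 10, 12 and 14, with medians of -0.57, -0.77 and -0.68. Within the KRAB-box members the share that fell was thus higher with a neighbour under triptolide (42.7 against 34.5% in activated and 59.4 against 48.3% in resting cells) and lower under DRB (37.5 against 41.4%), differences that were not tested.

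In all 3 arms 58 members fell (25.2%), against 17% of all genes, and 6 rose (2.61%), against 13.3%. The 58 comprised 28 with a KRAB box and 30 without. Spearman's rho of the log2 changes across the 230 members was 0.711 between triptolide and DRB in activated cells, 0.783 between triptolide in activated and resting cells, and 0.683 between DRB and triptolide in resting cells. Over all genes it was 0.861, 0.813 and 0.732. Genes are not independent replicates, and members have fewer counts than the typical gene.

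**Figure D2:**
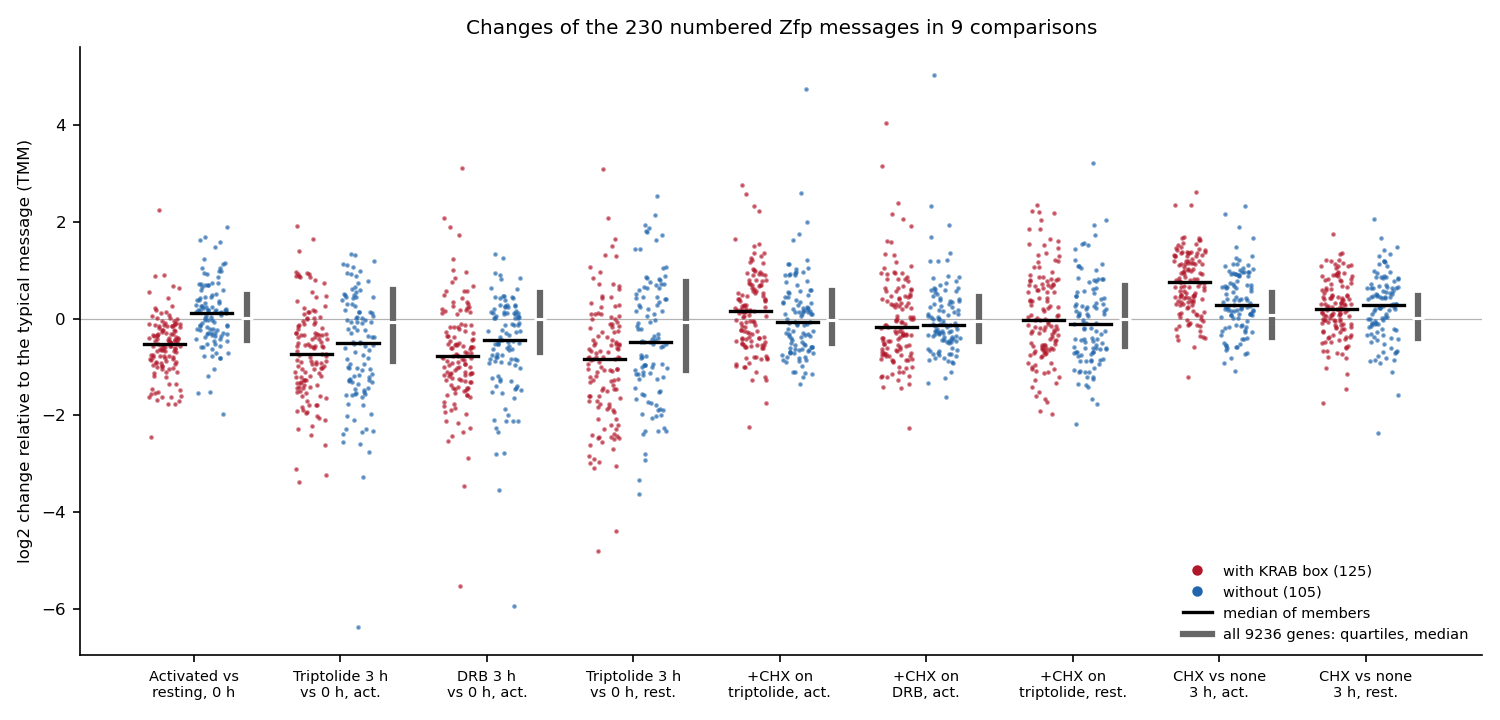
Log2 change of each member relative to the typical message (y axis) in 9 comparisons (x axis), for members with a KRAB box (red, 125) and without (blue). Black lines are medians of members, and grey bars run from the first to the third quartile of all 9236 genes with the median in white. The medians of both subgroups lie below that of all genes in the 3 transcription block arms (act. is activated, rest. is resting), from -0.44 to -0.83, and above it under cycloheximide alone, from 0.21 to 0.76.

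The 2 largest falls in activated cells under triptolide by the naming rule were in Zfp213 and Zfp7. Zfp213 had 13.9, 30.7 and 22.7 CPM at 0 h and 1.15, 1.81 and 4.03 CPM after 3 h of triptolide in activated cells (log2 -3.28, SE 0.61, adjusted p = 6.41e-06). It fell by 3.54 (SE 0.62) under DRB and by 3.34 (SE 0.61) in resting cells. Zfp7, a KRAB-box member, had 12.9, 18 and 13.9 CPM at 0 h and 2.29, 1.81 and 0.805 CPM at 3 h of triptolide in activated cells (log2 -3.11, SE 0.42, adjusted p = 5.44e-09). None of the 3 h libraries reached the lowest 0 h library in either gene. Both genes were near the detection limit in these 3 h libraries, where 3 counts equal 1.72, 5.42 and 2.42 CPM, so the sizes of these falls are uncertain.

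Zfp157, a KRAB-box member with the 2 sites printed above, fell in each arm. It had 8.04, 15.1 and 19.6 CPM at 0 h and 1.72, 1.81 and 3.22 CPM after 3 h of triptolide in activated cells (log2 -2.61, SE 0.43, adjusted p = 4.83e-07). Its values in these 3 h libraries were near the detection limit, where 3 counts equal 1.72, 5.42 and 2.42 CPM. In resting cells it had 35.5, 33.5 and 33.1 CPM at 0 h and 3.49, 8.96 and 5.32 CPM at 3 h (log2 -2.45, SE 0.33, adjusted p = 1.66e-09). Under DRB it fell by 3.45 (SE 0.46, adjusted p = 5.73e-09), and Zfp260 and Zfp553 changed there by -2.81 (SE 0.28) and -2.78 (SE 0.56).

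In resting cells the KRAB-box members Zfp39, Zfp54 and Zfp85 were near the detection limit after 3 h of triptolide. Zfp54 had 15.7, 15.5 and 13.8 CPM at 0 h and 1.75, 0.995 and 2.28 CPM at 3 h (log2 -3.08, SE 0.58, adjusted p = 4.8e-06). Zfp39 went from 38.3, 34.8 and 17.3 CPM to 0, 2.99 and 0.76 CPM (log2 -4.39, SE 0.60, adjusted p = 3.05e-09), where the library without a read allows up to 5.24 CPM by 3 counts. Zfp85 had 96 counts over the 0 h libraries and 1 over the 3 h libraries, a ratio of 0.0313 with an exact 95% binomial interval of 0.000785 to 0.179. Such intervals and limits cover counting error only.

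Zfp746 encodes PARIS, a transcriptional repressor that the ubiquitin ligase parkin marks for degradation. It had 74.5, 99.8 and 93.5 CPM at 0 h and 6.88, 28.9 and 16.1 CPM after 3 h of triptolide in activated cells (log2 -2.59, SE 0.36, adjusted p = 8.48e-09). In resting cells it went from 98.5, 79.9 and 94 CPM to 12.2, 8.96 and 14.4 CPM (log2 -2.91, SE 0.37, adjusted p = 3.37e-10). Under DRB it fell by 2.11 (SE 0.34, adjusted p = 6.56e-07). The groups did not overlap in any arm, and its level in untreated cells did not pass the test between activated and resting cells (log2 -0.36, SE 0.30, adjusted p = 0.383).

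Among the 16 transcription and chromatin regulators 5 fell and 4 or 5 rose in each arm. The 31.3% that fell and 25 to 31.3% that rose lie near the shares of all genes, 23.6 to 32.9% and 20.4 to 29%. The falls were in the same 5 genes in the 3 arms, namely Zfp143, an activator of many housekeeping and small nuclear RNA promoters, Zfp217, a partner of corepressor complexes, Zfp281, a regulator of the pluripotent state, Zfp410, an activator of Chd4, and Zfp592, a chromatin-associated partner of Zfp687. Zfp217 had 62.7, 75.2 and 70.8 CPM at 0 h and 10.9, 23.5 and 20.9 CPM at 3 h of triptolide in activated cells (log2 -2.01, SE 0.28, adjusted p = 1.13e-08). Zfp281 had 149, 177 and 178 CPM at 0 h and 51.6, 47 and 66.8 CPM at 3 h (log2 -1.59, SE 0.19, adjusted p = 2.23e-10). Both fell in the other arms, with changes of -2.02 (SE 0.27) and -1.71 (SE 0.19) in resting cells and of -1.30 (SE 0.26) and -1.26 (SE 0.19) under DRB.

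Zfp143 had 37.5, 39.7 and 48 CPM at 0 h and 4.01, 12.6 and 8.05 CPM at 3 h of triptolide in activated cells (log2 -2.55, SE 0.27, adjusted p = 2.81e-12). It fell by 0.80 (SE 0.22) under DRB and by 1.67 (SE 0.26) in resting cells. Zfp410 fell by 1.59 (SE 0.28), 0.63 and 0.76 (SE 0.25) in the same order. The call of Zfp410 under DRB was lost without replicate 2 or 4 (adjusted p = 0.28 and 0.18), and that of Zfp592, with changes of -0.60, -0.61 and -0.52, without replicate 4 in each arm (0.065, 0.12 and 0.17) and without replicate 2 under triptolide (0.32 and 0.066). The difference between the inhibitors was not tested.

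Of the 9 RNA and ribosome factors 4, 3 and 4 fell under triptolide in activated cells, DRB and triptolide in resting cells. Of all genes 28.9%, 23.6% and 32.9% fell. Zfp207, which loads Bub3 onto the spindle and acts in splicing, had 97.6, 118 and 147 CPM at 0 h and 55.6, 43.4 and 60.4 CPM at 3 h of triptolide in activated cells (log2 -1.15, SE 0.22, adjusted p = 9.92e-06). Zfp638, an RNA-binding protein that also silences unintegrated retroviral DNA, went from 171, 163 and 205 CPM to 86.5, 88.5 and 106 CPM (log2 -0.93, SE 0.23, adjusted p = 0.000597). Zfp318 fell by 0.94, 0.92 and 0.82 in the 3 arms, and Zfp593 fell under triptolide by 1.26 (SE 0.30) in activated and 1.01 (SE 0.37) in resting cells. Without 1 replicate number at a time, the resting calls of Zfp638 (adjusted p = 0.12, 0.17 and 0.084), of Zfp318 without 2 or 4 (0.064 and 0.051) and of Zfp593 without 3 (0.20) were lost, and so was that of Zfp318 under DRB without 4 (0.055).

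Measured from the list of retroelement and imprint factors were Zfp568, a silencer of Igf2 in the embryo, and Zfp809, a silencer of retroviral DNA. Both fell under triptolide in activated and resting cells. The list need not be complete, and Zfp445, a KRAB-box member at 73.7 CPM (mean over all libraries), was not on it. Neither Zfp445 nor Zfp568 was among the members that fell in all arms. Zfp809 changed by -1.34 in activated cells, -1.43 under DRB and -0.82 in resting cells. Zfp568 had 26.8, 40.2 and 25.3 CPM at 0 h and 22.3, 16.3 and 20.9 CPM at 3 h of triptolide in activated cells (log2 -0.60, SE 0.24, adjusted p = 0.0298, and 0.49 and 0.057 without replicates 3 and 4). In resting cells it fell by 0.89 (SE 0.24, adjusted p = 0.00117).

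Zfp110, a partner of a neurotrophin receptor and among the highest members per kb, had 176, 142 and 136 CPM at 0 h and 33.2, 31.8 and 34.2 CPM at 3 h of triptolide in resting cells (log2 -2.19, SE 0.21, adjusted p = 3.8e-14). It fell by 1.41 (SE 0.21) in activated cells and by 1.13 (SE 0.21) under DRB. Zfp869, the highest per kb, changed by -1.83 (SE 0.30) in activated and -2.48 (SE 0.29) in resting cells under triptolide. Its change of -0.59 under DRB did not pass the test (adjusted p = 0.0659).

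6 members went the other way. Zfp106, Zfp148, Zfp407, Zfp644, Zfp692 and Zfp827 rose relative to the typical message in all 3 arms, and with spike-in scaling no member was called higher in any arm. Zfp407, a large zinc finger protein, had 240, 127 and 184 CPM at 0 h and 426, 387 and 440 CPM after 3 h of triptolide in activated cells (log2 1.19, SE 0.32, adjusted p = 0.00149, and -0.48 with spike-in scaling). Its introns rose by 2.06 on the log2 scale. Zfp644, which binds the histone methyltransferases G9a and GLP, had 160, 134 and 188 CPM at 0 h and 280, 295 and 350 CPM at 3 h (log2 0.94, SE 0.18, adjusted p = 7e-06, and -0.68 with spike-in scaling). In both the 3 h libraries were all above those at 0 h on the CPM scale. Without the replicate 4 libraries the activated triptolide rises of Zfp106, Zfp148, Zfp407, Zfp692 and Zfp827 did not pass (adjusted p = 0.13, 0.22, 0.069, 0.071 and 0.072), nor did the DRB rises of Zfp106, Zfp407 and Zfp827 (0.14, 0.075 and 0.087), that of Zfp106 in resting cells (0.13), or, without replicate 3, that of Zfp148 in activated cells under triptolide (0.086).

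Some rises under the blockers were in weak messages with values that differed between libraries. Zfp9 had 5.47, 3.1 and 1.85 CPM at 0 h of DRB and 23, 75.1 and 5.64 CPM at 3 h (log2 3.12, SE 0.85, adjusted p = 0.00202, and adjusted p = 0.18 without the replicate 3 libraries). Zfp948 went from 18.6, 18.6 and 21.8 CPM to 38, 36.9 and 119 CPM under DRB (log2 1.72, SE 0.39, adjusted p = 0.000219, and adjusted p = 0.13 without replicate 4), and its introns rose by 3.05. The expressed gene upstream on the same strand, Zfp52, ends 4407 bases before it. In resting cells Zfp609 rose from 7.27, 9.67 and 6.74 CPM to 40.2, 62.7 and 34.9 CPM (log2 2.53, SE 0.58, adjusted p = 0.000141), with an intron rise of 2.82 and an expressed upstream gene, Trip4, 1366 bases away. None of the 3 rises passed with spike-in scaling (adjusted p = 0.12, 0.78 and 0.29). Whether reads from upstream genes take part in them was not tested.

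The difference in loss between activated and resting cells was tested as the difference of the 2 triptolide changes. It was called for 7 members, 3 with a higher and 4 with a lower change in activated cells, where 4.73% and 3.28% of all genes were called. Zfp91, a ubiquitin ligase of the alternative NF-κB pathway, had 160, 169 and 171 CPM at 0 h and 173, 154 and 213 CPM at 3 h in activated cells. In resting cells it had 261, 189 and 168 CPM at 0 h and 96.1, 106 and 113 CPM at 3 h. The difference of the changes was 1.08 (SE 0.22, adjusted p = 0.000618), and relative to the typical message it was in resting cells that the message fell.

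Zfp597 behaved in the same direction, from 50.4, 53.4 and 56.2 CPM to 37.2, 37.9 and 47.5 CPM in activated cells and from 114, 95.7 and 86.6 CPM to 41.9, 22.9 and 36.5 CPM in resting cells (difference 1.20, SE 0.30, adjusted p = 0.00588). Its exons overlap those of Naa60 and Zfp174 on the other strand. Zfp169, a KRAB-box member, went the opposite way. It had 61.1, 94.1 and 62.6 CPM at 0 h and 52.1, 32.5 and 40.3 CPM at 3 h in activated cells, and 63, 108 and 70.6 CPM and then 112, 151 and 109 CPM in resting cells (difference -1.38, SE 0.34, adjusted p = 0.00529). Zfp831 had the lower change in activated cells (difference -1.19, SE 0.33, adjusted p = 0.0123). These 4 messages hold sites printed above, and 2 of the 76 members with the heptamer had a higher and 2 a lower change in activated cells, against 1 and 2 of the 154 without. No such difference passed the test with spike-in scaling for Zfp91, Zfp597, Zfp169 and Zfp831 (adjusted p = 0.061, 0.066, 0.117 and 0.256). Without the replicate 4 libraries 1 member was called in each direction, and these 4 did not pass (adjusted p = 0.053, 0.071, 0.10 and 0.27).

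The next comparisons asked what blocking translation did to the messages that remain under a transcription block. Adding cycloheximide to triptolide for 3 h left 31 members higher and 25 lower in activated cells, where 18.5% of all genes were higher and 13.6% lower. With DRB 14 were higher and 21 lower (12.5% and 8.27% of all genes), and in resting cells with triptolide 42 were higher and 39 lower (21.7% and 19.1% of all genes). The median log2 difference over members was 0.08, -0.14 and -0.09. With the replicate number in the fit the lower calls became 42 in activated cells with triptolide (23.9% of all genes). The calls with DRB became 23 higher and 35 lower (18.2% and 18.2% of all genes).

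With spike-in scaling 87, 60 and 108 members were higher, where 40.2%, 34.9% and 52.7% of all genes were. By edgeR 0, 0 and 1 were then lower (0.346%, 0.0866% and 0.119% of all genes), with 1, 0 and 2 lower at an unadjusted p under 0.05. DESeq2 with its own size factors called 29 higher and 20 lower, 16 higher and 12 lower, and 43 higher and 30 lower. Without the replicate 4 libraries 13, 3 and 16 members were higher and 6, 5 and 17 lower. The shares of all genes were not counted for DESeq2 or without replicate 4. The median difference was 0.15 in KRAB-box members and -0.07 in the others in activated cells under triptolide.

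Zfp746 stood at 6.88, 28.9 and 16.1 CPM after 3 h of triptolide in activated cells and at 61.6, 119 and 88.4 CPM with cycloheximide added (log2 2.59, SE 0.36, adjusted p = 1.79e-08). In resting cells it stood at 12.2, 8.96 and 14.4 CPM and at 135, 98.4 and 102 CPM (log2 3.21, SE 0.37, adjusted p = 8.06e-11). With DRB the difference was 2.33 (SE 0.35, adjusted p = 4.15e-07). Every library with cycloheximide was above all those without in each arm.

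Zfp157, Zfp110 and Zfp263 showed the same direction in each arm. Zfp157 had 1.72, 1.81 and 3.22 CPM under triptolide and 14.5, 9.76 and 10.2 CPM with cycloheximide in activated cells (log2 2.32, SE 0.43, adjusted p = 1.54e-05), and differed by 3.16 (SE 0.50) with DRB and 2.35 (SE 0.33) in resting cells. Its values under triptolide alone in activated cells were near the detection limit. Zfp110 had 33.2, 31.8 and 34.2 CPM and 124, 108 and 129 CPM in resting cells (log2 1.86, SE 0.21, adjusted p = 6.43e-11), and differed by 1.36 (SE 0.21) and 0.96 (SE 0.21) in activated cells with triptolide and DRB. Zfp263 had 35, 21.7 and 35.4 CPM and 98.8, 118 and 106 CPM in activated cells with triptolide (log2 1.75, SE 0.19, adjusted p = 1.24e-11), 1.36 (SE 0.19) with DRB and 1.73 (SE 0.19) in resting cells.

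Other short-lived messages were not called higher in the arms given here. Zfp217 had 10.9, 23.5 and 20.9 CPM under triptolide and 20.1, 26 and 17.8 CPM with cycloheximide in activated cells (log2 0.28, SE 0.30, adjusted p = 0.492). Its differences with DRB and in resting cells were -0.01 (SE 0.29) and 0.05 (SE 0.30), and the groups overlapped in all 3. Zfp281 had 51.6, 47 and 66.8 CPM and 59.9, 52 and 66.6 CPM in activated cells with triptolide (log2 0.10, SE 0.20, adjusted p = 0.722). In resting cells it was lower with cycloheximide, from 59.4, 94.5 and 79.8 to 49.1, 47.4 and 58.8 CPM (log2 -0.61, SE 0.20, adjusted p = 0.00917), a call that turned to 0.35 with spike-in scaling and was lost without the replicate 3 libraries (adjusted p = 0.16). With DRB it was called lower as well, a call lost in 5 of the alternative settings. Zfp207 overlapped between the groups in activated cells with triptolide (log2 0.21, SE 0.22, adjusted p = 0.484).

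**Figure D3:**
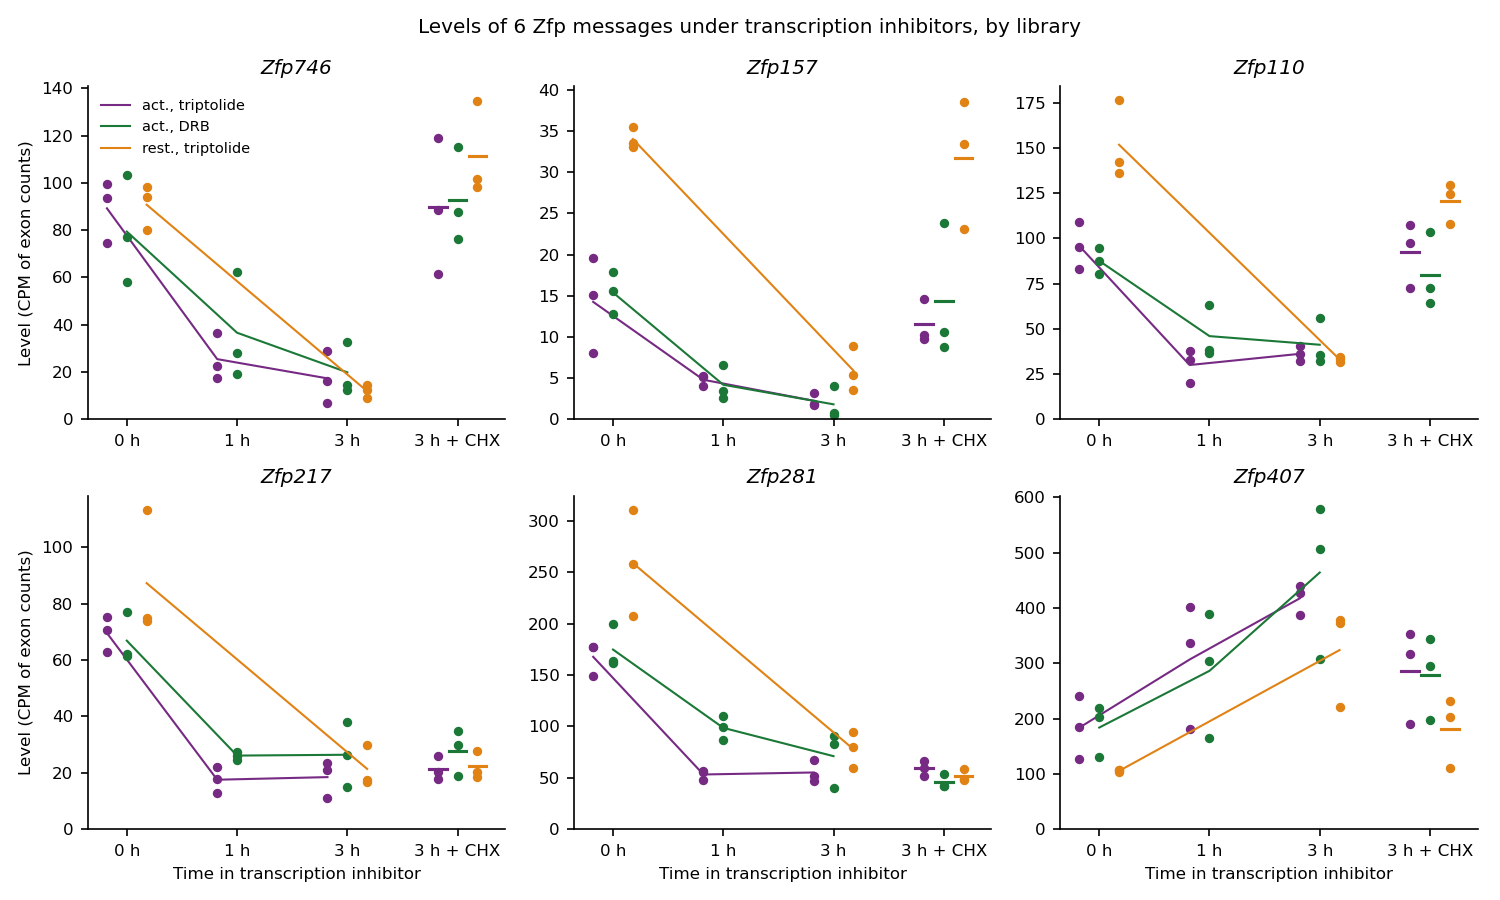
Level of 6 members (y axes, CPM of exon counts, linear from 0) at 0, 1 and 3 h of a transcription inhibitor and at 3 h with cycloheximide added (x axes). Points are libraries, lines join the means of 3, and short bars are means with cycloheximide. Purple is triptolide and green DRB in activated cells, and orange is triptolide in resting cells, for which the 1 h group is not drawn because it holds the library of 6300 exon counts. Zfp746, Zfp157 and Zfp110 are high again with cycloheximide, Zfp217 stays near its 3 h level, and Zfp407 rises with time relative to the typical message. Zfp281 stays near its 3 h level under triptolide in activated cells and was called lower with cycloheximide in the other arms.

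Other members were lower with cycloheximide. In resting cells these held members that had fallen in all 3 arms, such as Zfp281 and Zfp329 (log2 -1.65, SE 0.39, adjusted p = 0.000419, and -0.76 with adjusted p = 0.12 by spike-in scaling). Zfp169 had 112, 151 and 109 CPM under triptolide and 26.8, 39.8 and 32.8 CPM with cycloheximide in resting cells (log2 -1.90, SE 0.25, adjusted p = 3.41e-09, and adjusted p = 0.0075 with spike-in scaling). Of the transcription and chromatin regulators 2, 0 and 3 of 16 were higher and 7, 4 and 7 lower in the 3 arms by edgeR. Among all genes 18.5%, 12.5% and 21.7% were higher and 13.6%, 8.27% and 19.1% lower. Zfp148, Zfp644 and Zfp292 were lower in all 3, with log2 differences of -0.59, -0.90 and -0.69, of -0.72, -0.88 and -0.93, and of -0.74, -0.86 and -1.03, where with spike-in scaling none passed and those of Zfp148 turned to 0.08 and 0.20 under triptolide. Without replicate 4 those of Zfp148 (adjusted p = 0.12, 0.073 and 0.057) and that of Zfp292 with DRB (0.13) were lost, as was that of Zfp148 with triptolide in activated cells without replicate 3 (0.073). In the same list Zfp143 was higher, by 1.63 (SE 0.28) in activated cells and 1.53 (SE 0.27) in resting cells with triptolide. Zfp91 had differences of -0.86, -0.48 and -0.50, of which the latter 2 turned to 0.23 and 0.44 with spike-in scaling and were lost without replicate 4 (adjusted p = 0.29 and 0.12).

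Cycloheximide alone, with transcription running, was compared with untreated cells at the same time. After 3 h in activated cells 100 members were higher and 6 lower, where 20.4% of all genes were higher and 14.8% lower. The median log2 difference was 0.55 over members and 0.07 over all genes. Among the KRAB-box members 63 passed as higher and 1 as lower (median 0.76), and among the others 37 passed as higher and 5 as lower (median 0.28). The KRAB-box sum was 2791, 2640 and 2730 CPM in untreated cells and 4896, 5200 and 4647 CPM under cycloheximide, without overlap.

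With the replicate number in the fit 12 members were lower in activated cells, where 21.1% of all genes were. Without the replicate 4 libraries 45 were higher and 3 lower, where the shares of all genes were not counted. With spike-in scaling 127 were higher and by edgeR 0 lower, with 1 lower at an unadjusted p under 0.05, where 29% of all genes were higher and 3.23% lower. By chromosome, the higher calls with TMM factors were in 26 of 53 members on chromosome 7, 16 of 30 on chromosome 17, 11 of 19 on chromosome 13 and 9 of 18 on chromosome 8.

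The 4 largest rises in activated cells were Zfp429, Zfp983, Zfp456 and Zfp974. Zfp429 had 6.98, 12.3 and 9.27 CPM in untreated cells and 42.8, 60.2 and 68.7 CPM under cycloheximide (log2 2.62, SE 0.39, adjusted p = 9.64e-08). Zfp456 had 15.4, 12.3 and 17.3 CPM and 70.1, 87.7 and 75.2 CPM (log2 2.36, SE 0.33, adjusted p = 1.31e-08). These KRAB-box genes are neighbours on chromosome 13, at 67387905 to 67399819 and 67362113 to 67375810 (GRCm38), and Zfp456 shares exons with an overlapping gene model. Zfp974, without a box by the pattern, had 3.84, 2.33 and 6.32 CPM and 20.9, 24.3 and 20.6 CPM (log2 2.34, SE 0.34, adjusted p = 4.26e-08). The libraries of the 2 conditions did not overlap in these genes.

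Among genes with a known role, Zfp622, which helps release a factor from the new large ribosomal subunit, had 99.9, 134 and 128 CPM in untreated and 251, 365 and 401 CPM in cycloheximide-treated activated cells (log2 1.49, SE 0.24, adjusted p = 8.71e-07). It rose in resting cells as well (log2 0.94, SE 0.24, adjusted p = 0.00195, and 0.10 without the replicate 4 libraries). Zfp384 had 70.9, 60.7 and 65.3 CPM and 139, 130 and 187 CPM (log2 1.21, SE 0.24, adjusted p = 3.02e-05), and Zfp292 205, 182 and 205 CPM and 383, 345 and 396 CPM (log2 0.92, SE 0.20, adjusted p = 0.00014). Zfp335, needed for the maturation of T cells, rose by 0.97 (SE 0.23, adjusted p = 0.000502, and 0.097 without the replicate 4 libraries). Of the 16 transcription and chromatin regulators 5 rose and 1, Zfp281, fell, where 20.4% of all genes rose and 14.8% fell.

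The deepest of the 6 falls was Zfp106, with 518, 314 and 461 CPM in untreated and 239, 166 and 207 CPM in cycloheximide-treated activated cells (log2 -1.08, SE 0.22, adjusted p = 5.26e-05, and -0.68 with adjusted p = 0.1 by spike-in scaling). Its introns fell by 1.18. Zfp664, Zfp146 and Zfp281 fell by 0.58 (SE 0.20), 0.53 (SE 0.21) and 0.43 (SE 0.17), and these calls were lost with spike-in scaling (adjusted p = 0.73, 0.77 and 0.97). That of Zfp664 was lost without replicate 2 (0.056), and those of Zfp146 and Zfp281 without any 1 of the 3 replicate numbers (0.066 to 0.19 and 0.068 to 0.14).

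In resting cells 59 members were higher under cycloheximide for 3 h and 16 lower (17.2% and 13.5% of all genes), with a median of 0.25. KRAB-box members had 31 higher and 6 lower, the others 28 higher and 10 lower. With the replicate number in the fit 33 were lower, where 23.1% of all genes were. Without the replicate 4 libraries 14 were higher and 6 lower, where the shares of all genes were not counted. With spike-in scaling 180 were higher and 1 lower, where 68.3% of all genes were then higher and 0.282% lower. The KRAB-box sum was 3483, 4665 and 5024 CPM in untreated and 4760, 5828 and 6162 CPM in treated cells, which overlapped.

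Zfp784 had 6.59, 4.83 and 4.21 CPM in untreated and 21.8, 19.6 and 21.6 CPM in treated resting cells (log2 2.06, SE 0.34, adjusted p = 2.88e-06). Zfp593 had 19.1, 5.71 and 13.6 CPM and 45.9, 39.2 and 35.2 CPM (log2 1.67, SE 0.28, adjusted p = 3.37e-06). Zfp213, among the fastest to be lost under the transcription blockers, had 32.3, 27.7 and 20.8 CPM and 76.5, 71.1 and 74 CPM (log2 1.48, SE 0.35, adjusted p = 0.000644, and 0.093 without the replicate 4 libraries). In the opposite direction, Zfp367 had 33.6, 30.3 and 56.7 CPM and 6.75, 7.56 and 9.1 CPM (log2 -2.35, SE 0.32, adjusted p = 3.81e-08). It was also lower in untreated activated than in resting cells (log2 -1.97, SE 0.37, adjusted p = 1.72e-05), and it holds 2 TATTTAT sites.

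Under cycloheximide the median intron change of members was below their median exon change. Of the 137 members tested on introns 14 were higher and 9 lower in activated cells (12.3% and 13% of genes tested on introns), and 2 were higher and 2 lower in resting cells (3.56% and 3.72%). The median exon change of these 137 members was 0.58 and the median intron change 0.16 in activated cells. The exon change, with its sign, was above the intron change in 111. The same count was not made over all genes. In resting cells the medians were 0.20 and -0.03, with the exon change above the intron change in 94. In activated cells the introns of Zfp429 rose by 1.98 and its exons by 2.62.

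**Figure D4:**
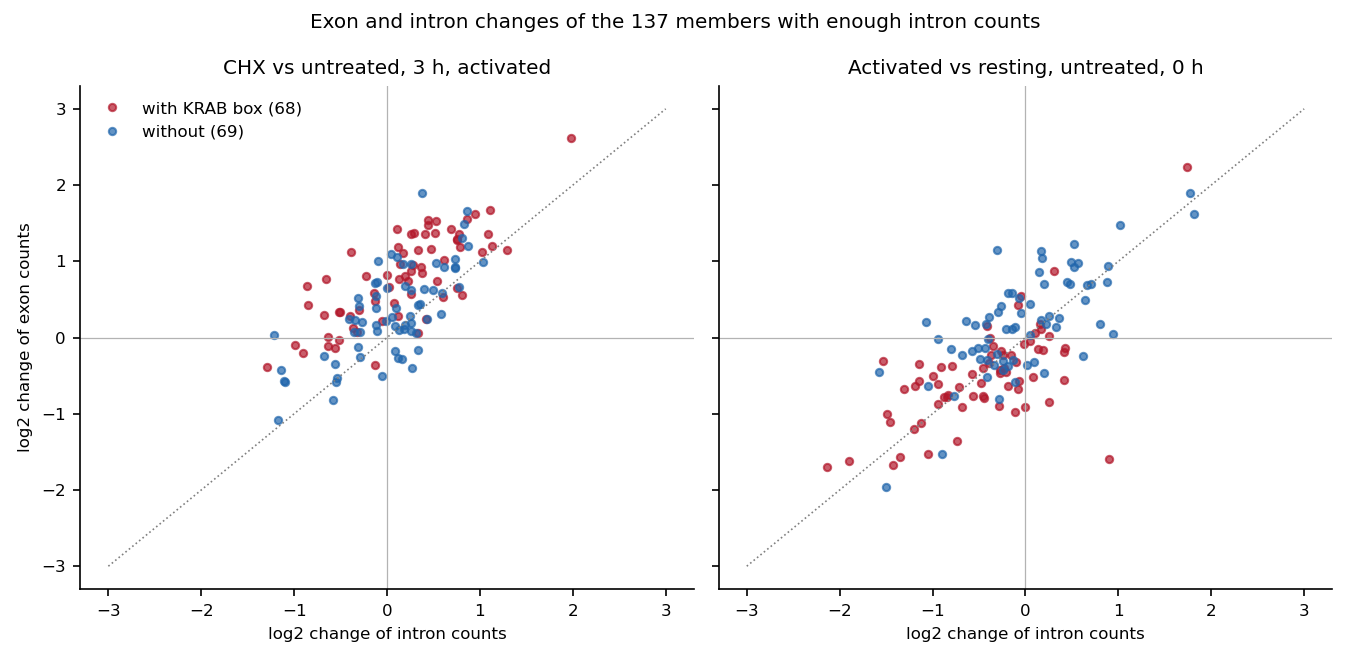
Log2 change of exon counts (y axes) against that of intron counts (x axes) for the 137 members tested on introns, 68 with a KRAB box (red) and 69 without (blue). Left, activated cells under cycloheximide against untreated cells at 3 h, and right, untreated activated against resting cells at 0 h. The dotted line marks equal changes. On the left 111 points lie above it, and on the right 77.

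Introns were also read under the transcription blockers. They fell in 21 and rose in 23 of the 137 members under triptolide in activated cells (20.7% and 20.1% of genes), fell in 33 and rose in 25 under DRB (23.9% and 28%), and fell in 59 and rose in 21 in resting cells (35.6% and 22.7%). Their median changes were -0.19, 0.03 and -0.80, relative to the typical intron count, where the exons of the same members had -0.50, -0.42 and -0.52.

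Harringtonine acts at another step than cycloheximide. Given alone, its numbers of higher calls were near those with cycloheximide. Added to a transcription blocker, it gave another balance of higher and lower calls with TMM factors, a difference between the blockers that was not tested. By itself for 3 h it left 100 members higher and 5 lower in activated cells (20.4% and 15.1% of all genes), and 55 higher and 7 lower in resting cells (13.3% and 10.9%). Added to triptolide or DRB in activated cells it left 45 higher and 12 lower (17.7% and 11.4%) and 32 higher and 9 lower (13.4% and 9.18%), and with triptolide in resting cells 36 higher and 20 lower (17.1% and 11.3%). With spike-in scaling 74, 79 and 77 were higher in these 3 arms, where 25.4%, 30.1% and 31.6% of all genes were. By edgeR 0 were then lower in each (1.32%, 0.531% and 0.206% of all genes). At an unadjusted p under 0.05 the lower counts were 0, 0 and 5. The comparisons with the 2 translation blockers share their control libraries.

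Loss was already visible at 1 h. In activated cells 92 members had fallen after 1 h of triptolide and 63 after 1 h of DRB, with 16.6% and 11.4% of all genes lower, and 1 and 2 had risen (11.4% and 7.24% of all genes). In resting cells 101 had fallen and 6 risen after 1 h of triptolide (17.8% and 12.8%), and without the 2 shallowest libraries 103 and 5 (18.6% and 12.3%). Cycloheximide added to triptolide for 1 h in activated cells left 52 members higher and 1 lower (10.2% and 3.51%), and added to DRB 25 and 1 (5.39% and 2.13%). Cycloheximide alone for 1 h left 17 members higher in activated and 17 in resting cells (2.52% and 1.6%). Between the 0 h libraries of an inhibitor and untreated 0 h libraries 2 members were lower for triptolide and 1 for DRB in activated cells (0.585% and 0.736% of all genes). Without any inhibitor, from 0 to 3 h, 9 members were lower and 1 higher in activated cells (10% and 6.02%), and 2 lower and 5 higher in resting cells (4.14% and 3.42%).

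The KRAB corepressor genes, the partners of the KRAB-box members, were followed as a list of 20 genes. Relative to the typical message 6, 4 and 6 of them fell under triptolide in activated cells, DRB and triptolide in resting cells, and 4, 3 and 4 rose. These shares, 30%, 20% and 30% lower and 20%, 15% and 20% higher, lie near or below those of all genes (28.9%, 23.6% and 32.9% lower, 23.3%, 20.4% and 29% higher). Trim28, the common corepressor, had 351, 430 and 355 CPM at 0 h and 140, 148 and 147 CPM after 3 h of triptolide in activated cells (log2 -1.39, SE 0.18, adjusted p = 2.03e-09). With cycloheximide added it had 322, 389 and 340 CPM (log2 1.27, SE 0.18, adjusted p = 4.14e-08). It fell by 0.91 (SE 0.18) under DRB and by 0.98 (SE 0.18) in resting cells, and cycloheximide left it higher there by 0.90 (SE 0.18, lost without replicate 4 at adjusted p = 0.071) and 1.23 (SE 0.18).

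Cycloheximide alone in activated cells lowered Trim28 relative to the typical message, from 610, 640 and 580 to 370, 399 and 363 CPM (log2 -0.69, SE 0.17, adjusted p = 0.000979, and 0.47 with spike-in scaling). The histone deacetylase Hdac2 fell by 1.45, 1.28 and 2.11 in the 3 arms and was higher with cycloheximide by 1.20, 1.17 and 1.55. Mta2, a subunit of the same NuRD complex, fell by 0.68, 0.43 and 1.24 and was higher by 0.77, 0.73 and 1.47, where the DRB values were lost without replicate 4 (adjusted p = 0.12 and 0.098) and the first of them without replicate 3 (0.21). Setdb1 was not called in activated cells (-0.07 under triptolide, 0.22 under DRB) and rose by 0.66 (SE 0.19) in resting cells, a call lost with DESeq2 (adjusted p = 0.072) and turned to -1.10 with spike-in scaling. Between activated and resting cells before inhibitors, 4 of the 20 corepressor genes passed the test as higher and 1 as lower. Of all genes 16.8% were higher and 13.4% lower. The median difference of the corepressor genes was 0.22, against 0.01 over all genes and -0.53 in the KRAB-box members. These medians were not compared by a test.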

How the data were processed

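RNA was measured in 105 libraries of mouse CD4+ T cells. Per the submitters' processing notes the authors used TopHat2 2.0.13, Bowtie 1.1.1.0 and HTSeq with genome mm10, and strandedness is not given in the sources used here. The deposited values are counts per gene, read as whole numbers, for exons, introns, coding sequence and ERCC spike-ins. Genes with a mean exon count of 10 or more (9236) were fitted with edgeR 4.0.16 (robust quasi-likelihood test, TMM factors, 35 group means, R 4.3.3). Benjamini-Hochberg adjustment covered all genes tested in each of 29 comparisons, with calls at an adjusted p under 0.05. Introns of 7389 genes were fitted in the same way. Rows that name no gene (unassigned, 75.8 to 97.3% of a library) stayed out. Depth ranged from 6300 to 6479221 exon counts, and no pair of replicates agreed within sampling noise (chi-square per degree of freedom of 1.15 or more over 105 pairs). The fit was tested on data simulated for triptolide at 3 h in activated cells. It recovered 43 of 100 changes of 2-fold and 92 of 100 of 4-fold, with 6 false calls. Changes of 2-fold can thus go uncalled.

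The members and gene lists were chosen with earlier results of these data known. Genes named were those of the role lists with at least 20 CPM, the 4 largest rises and falls per comparison among called members with at least 10 CPM in a group and no overlap, the 6 highest by CPM and by CPM per kb, and the corepressor list. Zfp110, Zfp157, Zfp143 and Zfp263 in arms outside that rule, and Zfp445, Zfp809, Zfp358 and Zfp759, were named after their values were seen. Same-numbered libraries deviated together within a cell state (correlation over 0.1 in 23 of 24 pairs, all but activated triptolide replicate 3), so blocked counts stand beside results of the paired comparisons where a count moved by over 1.5 times. Alternatives were DESeq2 1.42.0, RLE factors, spike-in scaling, other filters, fits of the groups compared only, the replicate block, leaving out each replicate or the 2 shallowest libraries, and coding-sequence counts. Zinc fingers, KRAB boxes and sites were searched with scripts in GENCODE M21 transcripts on GRCm38.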

Additional observations from a re-analysis of the deposited data

Results flagged for a closer look

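For 7 members the change over 3 h of triptolide differed between activated and resting cells by the interaction test of edgeR, with values given as the activated minus the resting log2 change. For Zfp91, Zfp597, Zfp169 and Zfp831 they were 1.08, 1.20, -1.38 and -1.19. The other 3 were at low level or rose in resting cells. Zfp759 had 3.75, 1.42 and 1.90 CPM at 0 h and 6.30, 9.04 and 8.05 CPM at 3 h in activated cells, and 7.67, 9.99 and 5.13 and then 0, 2.99 and 3.80 CPM in resting cells (difference 3.12, SE 0.81, adjusted p = 0.00784). Zfp358 had 1.61, 7.57 and 6.95 CPM and then 0.573, 1.81 and 3.22 CPM in activated cells, and 3.63, 6.45 and 3.53 and then 12.2, 10.9 and 6.84 CPM in resting cells (difference -2.67, SE 0.80, adjusted p = 0.0245). Zfp948 had 23, 20.3 and 25.3 CPM and then 20.6, 23.5 and 19.3 CPM in activated cells, and 12.5, 16.4 and 16 and then 17.5, 60.7 and 57.7 CPM in resting cells (difference -1.79, SE 0.59, adjusted p = 0.0451). With spike-in scaling 1 of the 7, Zfp759, passed (adjusted p = 0.016), and without the replicate 4 libraries 1, Zfp358 (adjusted p = 0.045).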

How the results depend on the processing

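Spike-in scaling moved the most counts of members called. It gave 9 higher and 20 lower for activation at 0 h, 0 and 209, 0 and 215, and 0 and 207 for triptolide in activated cells, DRB and triptolide in resting cells, 87 and 0, 60 and 0, and 108 and 1 for cycloheximide added to these, 127 and 0 and 180 and 1 for cycloheximide alone in activated and resting cells, and 1 and 0 for the difference between cell states, where all 0 counts are from edgeR and unadjusted counts stand in the report or, for the last, are 15 and 9. DESeq2 gave 6 higher for triptolide in activated cells, 12 lower for cycloheximide on DRB, 2 lower for the difference and 8 higher by introns at activation. RLE factors gave 7 higher for triptolide in activated cells and 11 lower by introns at activation, where filterByExpr gave 9 lower and no filter 5. No filter gave 15 lower for cycloheximide on triptolide in activated cells. Coding-sequence counts gave 3 lower for cycloheximide in activated cells, 7 higher for DRB and 2 lower for the difference. Fits of the groups compared only gave 4 higher and 1 lower for cycloheximide on DRB, 19 and 15 for cycloheximide on triptolide in activated cells and 57 lower for DRB. Without the 2 shallowest libraries 5 were higher for the difference. The cause was not tested.

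With the replicate block, 12 were lower under cycloheximide in activated and 33 in resting cells, 42 lower for cycloheximide on triptolide in activated cells, and 23 higher and 35 lower for cycloheximide on DRB. Of all genes 21.1%, 23.1% and 23.9% were then lower, and for cycloheximide on DRB 18.2% higher and 18.2% lower. Numbers were not taken to pair the samples for triptolide in activated cells (lowest correlation 0.0889), where the block gave 25 higher and 107 lower, for the difference (8 and 15) and for activation (correlations of -0.000568 to 0.132, 21 and 50). Of all genes 29.4% were then higher and 32.5% lower for triptolide, 10.1% and 9.74% for the difference, and 18.4% and 15.4% for activation. No other count of members by exons moved by over 1.5 times, and none of 255 gene results lost its call under the block.

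Leaving out replicates 2, 3 and 4 in turn gave ranges of members higher and lower. These were 5 to 21 and 18 to 37 for activation, 7 to 15 and 70 to 77 for triptolide and 6 to 14 and 55 to 75 for DRB in activated cells, 24 to 29 and 91 to 98 for triptolide in resting cells, and 1 to 3 and 1 to 4 for the difference. For cycloheximide they were 13 to 27 and 6 to 24 on triptolide and 3 to 15 and 5 to 17 on DRB in activated cells, 16 to 28 and 17 to 33 on triptolide in resting cells, and alone 45 to 78 and 3 to 6 in activated and 14 to 50 and 6 to 18 in resting cells. Introns at activation gave 2 to 5 and 3 to 14. The shares of all genes were not counted for these fits. Nor were they for DESeq2, RLE factors, other filters or fits of the groups compared only.

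Of the gene results, 44 changed sign, all with spike-in scaling. Under triptolide in activated cells the values became -0.86 for Cbx1, -0.66 for Hdac1, -0.67 for Pphln1, -1.05 for Rbbp4, -0.94 for Zfp106, -1.18 for Zfp148, -0.56 for Zfp326, -0.48 for Zfp407, -0.68 for Zfp644, -0.38 for Zfp692 and -0.53 for Zfp827. Under DRB they became -0.83 for Cbx5, -0.66 for Pphln1, -1.17 for Rbbp4, -0.71 for Zfp106, -0.78 for Zfp148, -0.19 for Zfp407, -0.66 for Zfp644 and -0.28 for Zfp827. Under triptolide in resting cells they became -1.11 for Cbx5, -1.19 for Dnmt1, -0.97 for Pphln1, -1.10 for Setdb1, -1.11 for Zfp106, -1.08 for Zfp148, -0.96 for Zfp346, -0.18 for Zfp407, -1.0 for Zfp598 and -0.92 for Zfp644. For cycloheximide on triptolide they became 0.018 for Zfp106 and 0.084 for Zfp148 in activated cells, and in resting cells 0.13 for Fam208a, 0.34 for Pphln1, 0.26 for Zfp106, 0.20 for Zfp148, 0.35 for Zfp281, 0.34 for Zfp335, 0.028 for Zfp407, 0.32 for Zfp568 and 0.44 for Zfp91. For cycloheximide on DRB Zfp91 became 0.23, and under cycloheximide alone in resting cells Zfp148, Zfp318 and Zfp644 became 0.42, 0.33 and 0.35. Calls lost with the same sign numbered 69 with spike-in scaling, 27 with DESeq2, 21 with RLE factors, 41 with coding-sequence counts, 11 with filterByExpr, 48 with no filter, 47 with the groups compared only, 57, 45 and 115 without replicates 2, 3 and 4, and 7 without the 2 shallowest libraries. Members have a median of 21.2 CPM against 41.4 CPM over all genes tested, and how far depth limits their calls was not tested.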
